A study of Mus musculus with 6 samples.

Results

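The genes described here are 33 mouse genes of the amino acid response, chosen by name but with earlier results of these data known. They are the transcription factor Atf4, its partners and feedback regulators, and enzymes, transporters, tRNA synthetases and secreted factors that are known as its targets. Of the 33, 32 had a probe set with a single annotated gene, out of 18193 such genes in the array table, and the proline enzyme gene Pycr1 was not analysed here. They were measured on 6 arrays of primary keratinocytes, cultured from the skin of newborn mice of a C57BL6/FVB background. In the knockout the gene for the lipid hydroperoxide-reducing selenoenzyme Gpx4 was removed by Cre under the keratin 14 promoter, so cells that do not use this promoter keep the gene. The control pools are given by the labels as control, with no further genotype. Each of the 3 litters, named A, B and C, gave 1 control pool and 1 knockout pool of cells from several pups, and all media of both groups held 100 nM sodium selenite. Each level is an intensity after quantile normalization between the 6 arrays, listed in the order litter A, B and C. Every log2 change is the knockout minus the control on log2(intensity + 16), fitted in limma with the litter as a block, so it understates changes of dim genes. The p-values measure the spread between these pools only.

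ATF4 is a transcription factor whose mRNA is translated more when the initiation factor eIF2 is phosphorylated, which happens when amino acids run short, when proteins misfold in the endoplasmic reticulum, when heme is low or when a virus infects the cell. It binds composite C/EBP-ATF elements near genes that make, import and charge amino acids onto tRNA. Feedback then restores translation through Ppp1r15a, which directs a phosphatase to eIF2. Trib3 feeds back on ATF4 itself, which it binds. Because much of ATF4's control is in translation, its own mRNA need not follow the activity of the protein. In cells that cannot reduce lipid peroxides, the response is of interest because cysteine for glutathione comes from import and from synthesis. Among the members, Cth releases cysteine from cystathionine.

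The element to which ATF4 is known to bind was looked for in the promoters, to show which members carry it near their start. The letters searched were TTGCATCA and TTTCATCA, on both strands, in windows of 250 bases before to 50 bases after each RefSeq start in GRCm38.p6. Of the 33 members 25 were in the promoter table, and 7 of these (28%) had a match, against 583 of 27025 genes (2.16%). By windows, 7 of 31 member windows (22.6%) and 1.9% of all windows held a match. The 5 matches of measured members that lie before the start are printed 5′ to 3′ on the gene's strand, with the element in capitals and 22 bases on each side, cut at the start of the gene in Asns. They are at chr6:7693210-7693254 (minus strand, Asns), chr19:27216798-27216849 (plus strand, Vldlr), chr7:126625551-126625602 (minus strand, Nupr1), chr7:45615600-45615651 (minus strand, Fgf21) and chr19:43524678-43524729 (minus strand, Got1).
Asns: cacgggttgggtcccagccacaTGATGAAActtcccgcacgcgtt
Vldlr: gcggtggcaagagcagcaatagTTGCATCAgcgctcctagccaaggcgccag
Nupr1: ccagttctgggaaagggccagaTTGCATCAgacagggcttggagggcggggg
Fgf21: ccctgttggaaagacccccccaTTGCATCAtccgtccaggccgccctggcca
Got1: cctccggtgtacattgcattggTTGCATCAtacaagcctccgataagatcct
The match in Asns is TTTCATCA read on the other strand, 23 bases before the start, and the others are TTGCATCA on the gene's strand at 200 (Vldlr), 110 (Nupr1), 139 (Fgf21) and 102 (Got1) bases before it. Slc1a4 had a match after its start, and Pycr1 had one before its start. A match is only a stretch of letters, and elements outside these windows were not searched.

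In the fit of all 3 litters no member passed an adjusted p of 0.05 in limma, neither higher nor lower, beside 0.214% of all genes called higher and 0.401% called lower. The smallest adjusted p of a member was 0.069, for Slc6a9. At an unadjusted p of 0.05 the count was 13 of 32 higher and 0 lower, against 8.66% and 9.45% of all genes. In 10 of 32 members every knockout pool was above every control pool, and in 1, Slc1a4, every knockout pool was below, beside 9.81% and 10.8% of all genes. In bulk cultures fewer cells of a type and less RNA per cell cannot be told apart.

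The log2 change was above 0 in 27 of 32 members (84.4%), against 50.1% of all genes, with a median of 0.28 against 0.00039. The share and the median moved with the scaling of the arrays. On the deposited scale 19 members were above 0 with a median of 0.087, where the median of all genes was -0.087. With each array shifted to a common median 23 were above 0, with a median of 0.15 beside -0.027 for all genes. No member passed on either scale. The change was above 0 in all 3 litters in 15 members (46.9%, against 19.3% of all genes) and below 0 in all 3 in 2 members, the transporter genes Slc7a1 and Slc1a4.

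**Figure D1:**
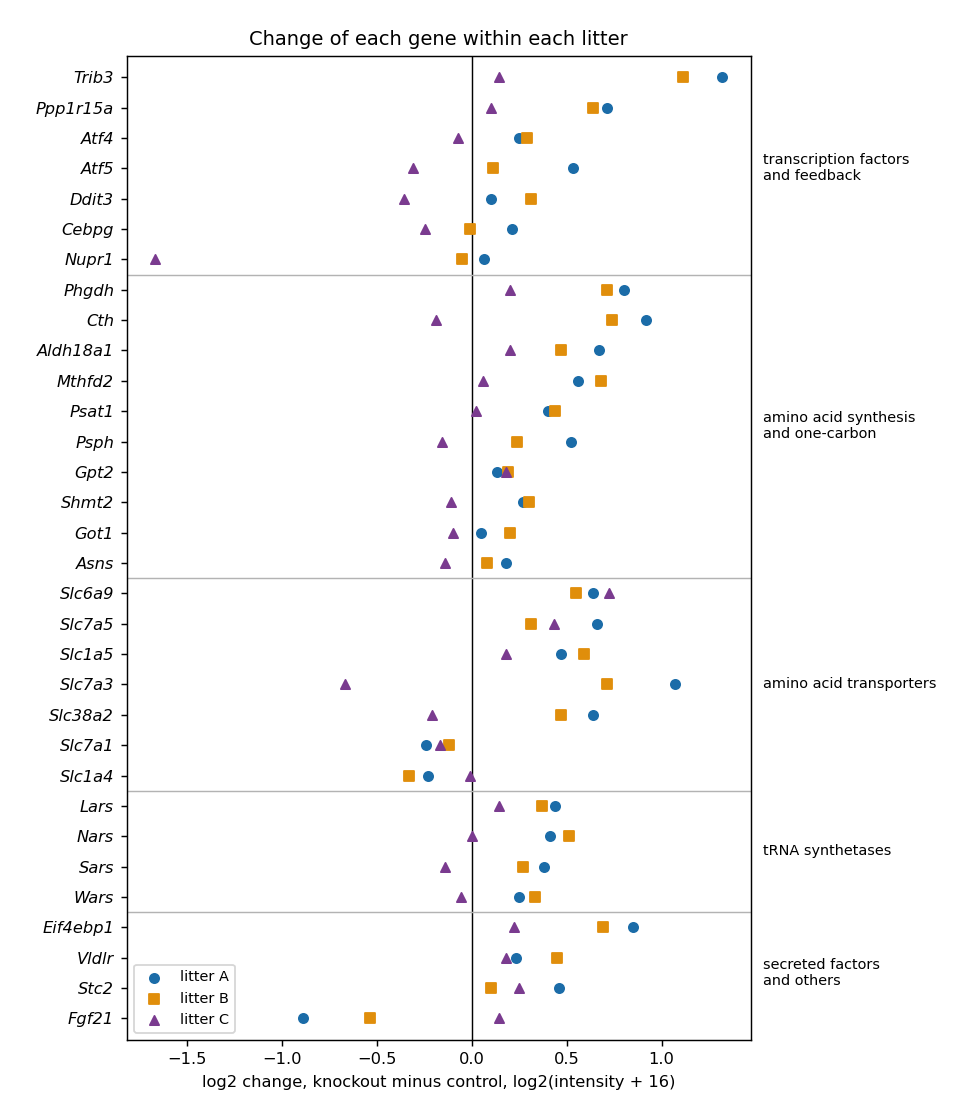
Log2 change of each of the 32 members, knockout minus control on log2(intensity + 16), within each litter (1 point a litter, colour and shape by litter). Points of litters A and B lie mostly to the right of 0 (29 and 27 of 32), and those of litter C lie on both sides (16 of 32 above 0); after quantile normalization the medians are 0.43, 0.32 and -0.0036.

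The litters did not give the same picture. The median change of the members was 0.43 in litter A, with 29 of 32 above 0, and 0.32 in litter B, with 27 above 0. In litter C it was -0.0036, with 16 above 0. At the median of all members the difference lay in the control arrays. Each gene was set against its own mean of the 6 arrays. The median member was at -0.28 and -0.22 in the controls of litters A and B and at 0.11 in the control of litter C. In the knockouts it was at 0.13, 0.13 and 0.11. By role, the litter C knockout was below the other knockouts in transporters (0.22, 0.18 and 0.057) and tRNA synthetases (0.16, 0.17 and 0.045). It was also lower in transcription factors and feedback genes (0.084, 0.064 and 0.0082) and slightly in synthesis genes (0.14, 0.17 and 0.12). The secreted factors and others went the other way (0.14, 0.11 and 0.19). The control of litter C was above both other controls in 26 of 32 members, against 6406 of 18193 genes, by a median of 0.34 against -0.02 over all genes. The litter C control was also the brightest array as deposited, with a trimmed mean intensity of 114 where the others were between 72.8 and 92. The part of that brightness in the members' levels was not tested.

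Without litter C, 14 of 32 members rose in limma, and the 3 with values below 0 (Slc7a1, Slc1a4 and Fgf21) did not pass, beside 4.19% of all genes called higher and 4.52% called lower. The 14 were Trib3, Ppp1r15a, Phgdh, Psat1, Mthfd2, Cth, Aldh18a1, Slc7a5, Slc7a3, Slc38a2, Slc6a9, Eif4ebp1, Lars and Nars. In 12 of these 14, all but Slc6a9 and Slc7a5, the litter C control lay above both other controls. With only the control array of litter C left out, and no replicate block, 13 members were called higher, and with only the knockout array of litter C left out the number was 0. Without litter A or without litter B the count was 0 as well. The fits without an array or a litter of C were made knowing that this litter stands apart, and they compare fewer pools.

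**Figure D2:**
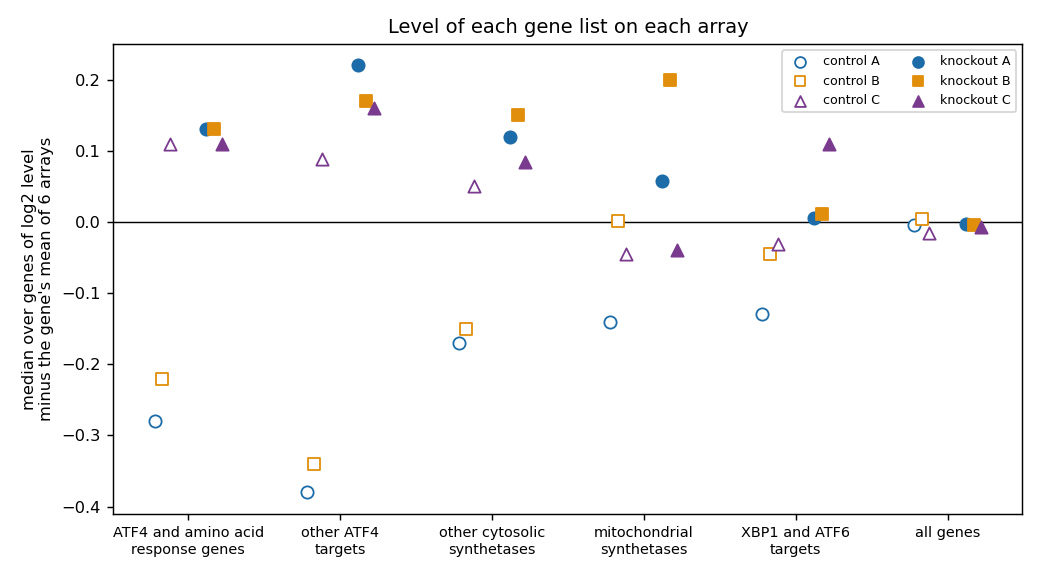
Median over genes of the log2 level on each array minus the gene's mean of 6 arrays, for the members and the other gene lists (open symbols are controls, filled symbols knockouts, shape and colour by litter). For the members the controls of litters A and B lie at -0.28 and -0.22, and the control of litter C, at 0.11, lies with the 3 knockouts at 0.11 to 0.13.

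Among the 7 transcription factors and feedback genes the median change was 0.11. At an unadjusted p of 0.05 2 were higher and 0 lower, beside 8.66% and 9.45% of all genes. On the deposited scale the median was -0.061 and with a common median -0.0016. Atf4 read 1297.3, 1215.7 and 1665.7 in the controls and 1545.7, 1489.9 and 1581.6 in the knockouts. The litter C control was the highest of the 6, and the groups overlapped. The change was 0.16 ± 0.095 (SE, n = 3 litters, limma adjusted p = 0.516), and -0.0073 on the deposited scale. A second Atf4 probe set had a mean of 808.4 ± 135.7 (SD, n = 3) in the controls and 1222.0 ± 175.7 in the knockouts, a change of 0.59 ± 0.096 (SE, limma adjusted p = 0.0724). Without litter C that probe set passed (0.70, adjusted p = 0.00465) and the brighter one did not (0.27 ± 0.072, adjusted p = 0.086), so the probe sets of Atf4 gave changes of unequal size. Another Atf4 probe set was near background, with means of 1.69 and 1.22.

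Trib3, the pseudokinase that feeds back on ATF4, had the highest change of the members. It read 144.2, 163.9 and 294.9 in the controls and 384.7, 371.8 and 325.6 in the knockouts. The groups did not overlap, but the control of litter C was close to its knockout. The change was 0.86 ± 0.22 (SE, limma adjusted p = 0.163), a 1.81-fold difference, and the litters gave 1.32, 1.11 and 0.14. Without litter C it rose by 1.22 ± 0.10 (adjusted p = 0.0018). Its other probe set gave 0.61 ± 0.31 (adjusted p = 0.426), and 1.12 without litter C (adjusted p = 0.00533).

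Ddit3 (CHOP), a stress-induced transcription factor, read 178.7, 164.5 and 259.8 in the controls and 193.0, 208.3 and 198.9 in the knockouts. The knockouts lay inside the range of the controls, and the change was 0.019 ± 0.15 (SE, limma adjusted p = 0.972), with -0.18 on the deposited scale. Ppp1r15a (GADD34), the phosphatase subunit, read 110.9, 106.0 and 192.8 in the controls and 191.1, 174.4 and 208.0 in the knockouts. Its change was 0.48 ± 0.15 (adjusted p = 0.213), and without litter C it rose by 0.67 ± 0.11 (adjusted p = 0.0168). Atf5, a related factor, read 412.1, 546.2 and 704.2 in the controls and between 566.8 and 601.9 in the knockouts, so the spread was in the controls (0.11 ± 0.16, adjusted p = 0.802; -0.061 on the deposited scale). Cebpg, the C/EBP partner, had levels of 214.9 to 263.7 in the controls and 219.9 to 251.7 in the knockouts, a change of -0.014 ± 0.12 (adjusted p = 0.975), and its 2 other probe sets gave changes of the other sign, 0.23 and 0.12.

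Nupr1, a small stress-induced chromatin protein gene, had a high litter C control. It read 171.8, 172.4 and 502.6 in the controls and 180.2, 165.6 and 147.3 in the knockouts. Only that 1 control array was high, and the other 5 were between 147.3 and 180.2. The change was -0.55 ± 0.33 (SE, limma adjusted p = 0.497) with the 3 litters and 0.0047 ± 0.10 (adjusted p = 0.99) without litter C.

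**Figure D3:**
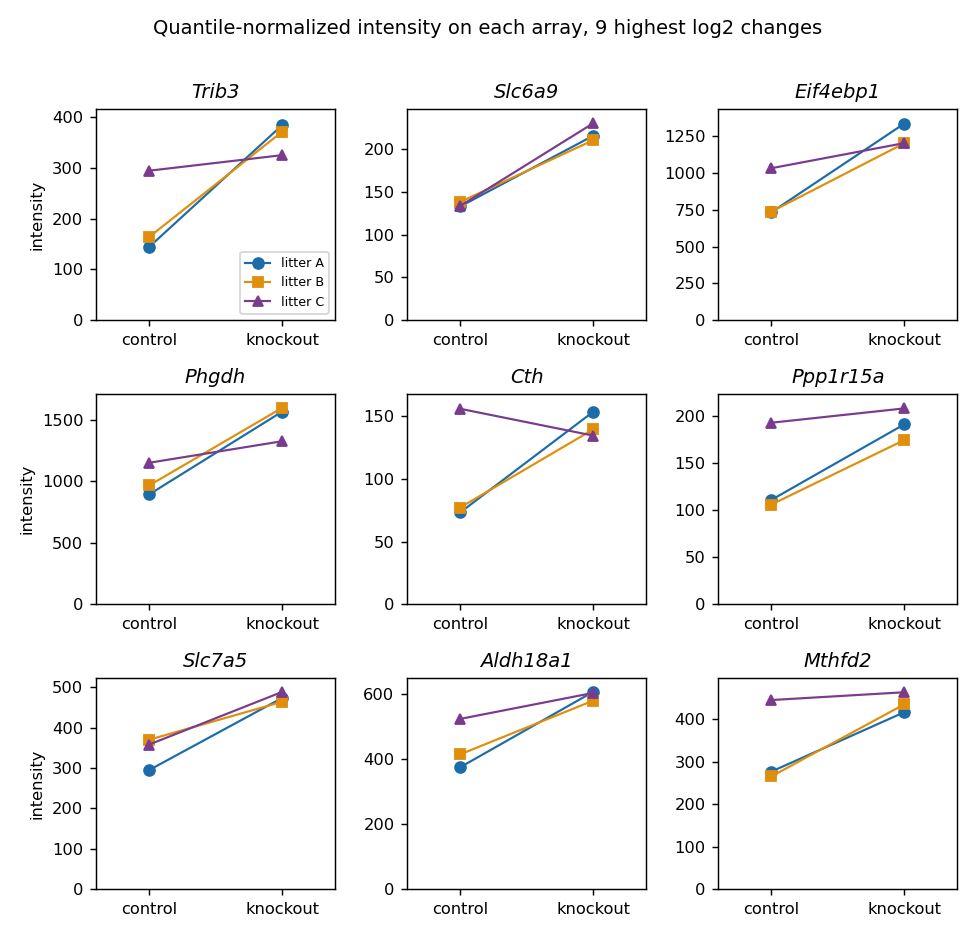
Quantile-normalized intensity on each array (vertical axis, from 0) in control and knockout pools for the members with the highest log2 changes: Trib3, Slc6a9, Eif4ebp1, Phgdh, Cth, Ppp1r15a, Slc7a5, Aldh18a1 and Mthfd2, with a line for each litter. The lines of litters A and B climb in every panel, and that of litter C is flatter in most, starts at a higher control in Trib3 (294.9) and slopes down in Cth.

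All 10 genes of amino acid synthesis and related folate metabolism had a change above 0 (median 0.24), though on the deposited scale 6 did (median 0.075) and with a common median 8 (0.13). At an unadjusted p of 0.05 4 of them were higher, beside 8.66% of all genes. Without litter C 5 passed in limma, beside 4.19% of all genes called higher. Phgdh, which makes the first committed step of serine synthesis, read 893.7, 966.9 and 1151.2 in the controls and 1566.4, 1596.9 and 1326.3 in the knockouts. Every knockout was above every control, with the smallest gap in litter C. Its change was 0.57 ± 0.13 (SE, limma adjusted p = 0.123), and without litter C 0.76 ± 0.074 (adjusted p = 0.00329). All 4 Phgdh probe sets had values above 0, from 0.37 to 0.65, and the dimmest of them had the smallest adjusted p of any member probe set (0.65 ± 0.089, 0.0514).

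Psat1 and Psph, the next enzymes of serine synthesis, had smaller changes than Phgdh on the probe sets used. Psat1 read 996.9, 1064.6 and 1341.5 in the controls and 1321.3, 1449.0 and 1362.6 in the knockouts, and only litter C's control reached the knockouts (0.29 ± 0.10, limma adjusted p = 0.279). Psph read 560.0, 665.4 and 759.5 in the controls and 810.9, 789.9 and 678.0 in the knockouts, with 0.20 ± 0.13 (adjusted p = 0.555) and a negative value in litter C (-0.16). Without litter C Psat1 passed (0.42, adjusted p = 0.0221) and Psph did not (0.38, adjusted p = 0.0663). A second, dimmer Psat1 probe set gave 0.57 ± 0.11 (SE, limma adjusted p = 0.0929), which is not smaller than the change of Phgdh (0.57 ± 0.13). Without litter C it gave 0.62 (limma adjusted p = 0.0286).

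The mitochondrial folate enzyme Mthfd2 read 276.7, 265.3 and 445.5 in the controls and 416.8, 435.4 and 463.9 in the knockouts. The litter C control was among the knockouts, and the change was 0.43 ± 0.14 (SE, limma adjusted p = 0.225), with 0.56, 0.68 and 0.056 in the litters. Without litter C it rose by 0.62 ± 0.088 (adjusted p = 0.0112). Shmt2, which passes a carbon unit from serine to folate in mitochondria, had a change of 0.15 ± 0.11 (adjusted p = 0.579) and -0.03 on the deposited scale. Its dimmer probe sets gave 0.24 ± 0.13, 0.14 ± 0.15 and, on the dimmest, 0.90 ± 0.16 (SE, limma adjusted p = 0.472, 0.739 and 0.0831). Without litter C the first and the last of these passed (limma adjusted p = 0.0444 and 0.0445).

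Cth, which releases cysteine from cystathionine, read 73.1, 77.0 and 155.4 in the controls and 153.0, 139.0 and 134.1 in the knockouts. The litter C control was the highest of all 6 arrays, and the litters gave 0.92, 0.74 and -0.19. The fit of 3 litters gave 0.49 ± 0.22 (SE, limma adjusted p = 0.374), and without litter C Cth rose by 0.83 ± 0.12 (adjusted p = 0.0133). Aldh18a1, the first enzyme of proline synthesis from glutamate, read 375.5, 415.3 and 524.7 in the controls and 608.3, 581.0 and 604.9 in the knockouts. The knockouts lay close together and above every control (0.45 ± 0.11, adjusted p = 0.151; 0.57 ± 0.089 and 0.0154 without litter C).

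Asns, the asparagine synthetase gene that is often used as a marker of this response, did not stand apart. It read 1595.8, 1665.7 and 1640.0 in the controls and 1812.2, 1760.4 and 1489.9 in the knockouts. The controls had an SD of 35.3 (n = 3), and the knockouts spread on both sides of them. Its change was 0.041 ± 0.087 (SE, limma adjusted p = 0.88), 0.13 ± 0.073 without litter C (adjusted p = 0.398) and -0.12 on the deposited scale. The aminotransferase genes Gpt2 and Got1 had changes of 0.16 ± 0.11 and 0.051 ± 0.11 (adjusted p = 0.538 and 0.888), which were -0.038 and -0.15 on the deposited scale.

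Of 7 amino acid transporters 5 had a change above 0, on all 3 scales, and 2 below (median 0.37; 0.18 as deposited and 0.24 with a common median). At an unadjusted p of 0.05 3 were higher and 0 lower, beside 8.66% and 9.45% of all genes. Without litter C 4 passed in limma, beside 4.19% of all genes called higher. Slc6a9, the glycine carrier GLYT1, kept its difference in litter C. It read 133.2, 138.5 and 133.8 in the controls and 216.1, 210.9 and 230.7 in the knockouts. The groups were far apart, with SDs of 2.94 and 10.2. The litters gave 0.64, 0.55 and 0.72, and the fit 0.64 ± 0.10 (SE, limma adjusted p = 0.069), a 1.56-fold difference. It passed without litter C (0.60 ± 0.10, adjusted p = 0.0217) and with a pseudocount of 1 in place of 16 (0.69, adjusted p = 0.0384). Its second, dimmer probe set gave 0.33 ± 0.30 (adjusted p = 0.681) and 0.022 without litter C (adjusted p = 0.983), and the mean of both gave 0.48 (adjusted p = 0.333).

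Slc7a5, the large neutral amino acid exchanger LAT1, read 294.9, 370.2 and 358.2 in the controls and 473.7, 464.3 and 488.8 in the knockouts. All knockouts were above all controls, litter C included, with 0.47 ± 0.10 (SE, limma adjusted p = 0.115) and 0.49 ± 0.11 (adjusted p = 0.0465) without litter C. Slc38a2, the sodium-coupled neutral carrier SNAT2, read 1764.3, 1921.6 and 2818.2 in the controls and 2751.5, 2668.5 and 2439.4 in the knockouts. Here the litter C control was the highest array, with 0.30 ± 0.16 (adjusted p = 0.448), and 0.55 ± 0.077 (adjusted p = 0.0108) without that litter. The dimmer Slc38a2 probe sets gave 0.062 ± 0.21 and 0.26 ± 0.21 (SE, limma adjusted p = 0.929 and 0.638). Neither passed without litter C (0.37 and 0.49, limma adjusted p = 0.168 and 0.275).

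The cationic amino acid carriers differed from each other. Slc7a3 read 107.3, 95.6 and 143.4 in the controls and 242.4, 166.0 and 84.1 in the knockouts, so litter C ran against the others (1.07, 0.71 and -0.67; 0.37 ± 0.31, limma adjusted p = 0.652). Without litter C it rose by 0.89 ± 0.13 (adjusted p = 0.0118). With only the control array of litter C left out, and no replicate block, Slc7a3 did not pass (0.51, limma adjusted p = 0.498). Slc7a1 was lower in all 3 litters, at 937.0, 975.1 and 1108.8 in the controls and 790.1, 893.4 and 981.6 in the knockouts. The groups overlapped because the litters differed in level, and the change was -0.18 ± 0.076 (adjusted p = 0.348); a second, dimmer probe set gave 0.0052 ± 0.093.

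The neutral carriers Slc1a4 and Slc1a5 were dim, under 100 in mean intensity over the arrays. Slc1a4 read 70.5, 75.9 and 61.5 in the controls and 57.5, 57.3 and 61.0 in the knockouts, which puts litter C's pools nearly level (-0.19 ± 0.14, limma adjusted p = 0.584). Slc1a5, the glutamine carrier ASCT2, read 27.9, 26.4 and 56.0 in the controls and 44.8, 47.8 and 65.6 in the knockouts. It was higher in each litter with overlapping groups (0.41 ± 0.16, adjusted p = 0.30), since both litter C pools were brighter than the others.

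**Figure D4:**
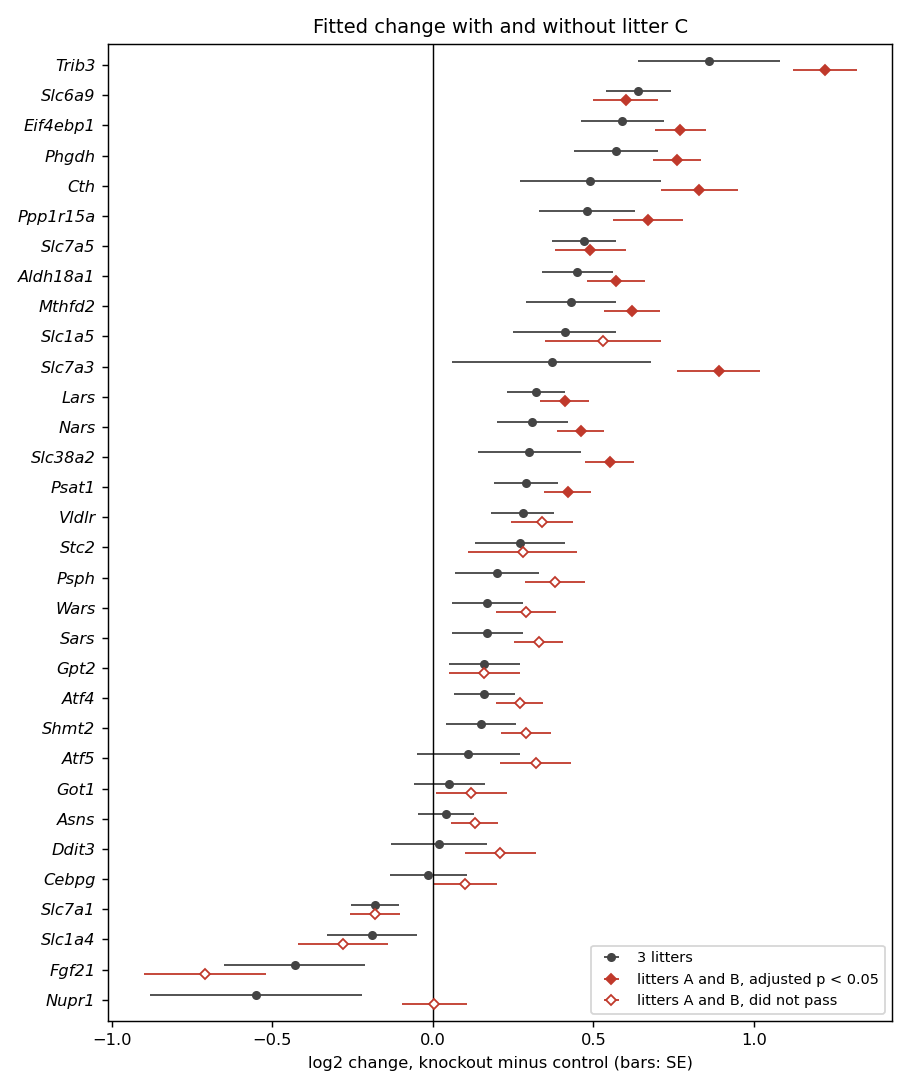
Fitted log2 change of each member (knockout minus control, bars are standard errors) with 3 litters (grey circles) and with litters A and B only (red diamonds, filled where limma's adjusted p was under 0.05). In the fit of 3 litters 0 of 32 passed and in that of 2 litters 14 passed, all to the right of 0.

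The 4 tRNA synthetase genes, which charge leucine, serine, asparagine and tryptophan in the cytosol, all had a change above 0, with Wars at -0.027 on the deposited scale. Their median was 0.24, or 0.072 as deposited and 0.13 with a common median. Lars read 724.5, 765.2 and 823.4 in the controls and 989.6, 995.7 and 905.9 in the knockouts. Nars read 1889.4, 1871.5 and 2017.5 in the controls and 2518.9, 2677.1 and 2020.2 in the knockouts. In both the groups did not overlap, narrowly in Nars, whose litter C pools differed by 0.0019 on the log2 scale. The changes were 0.32 ± 0.09 for Lars and 0.31 ± 0.11 for Nars (SE, limma adjusted p = 0.192 and 0.279), and both passed without litter C (0.41 and 0.46, adjusted p = 0.0274 and 0.016). Sars and Wars gave 0.17 ± 0.11 each (adjusted p = 0.556 and 0.54), and in both the litter C control was above its knockout on the probe set used. The dimmer probe sets of Wars gave larger changes of 0.39 ± 0.097, 0.27 ± 0.10 and 0.26 ± 0.11 (SE, limma adjusted p = 0.152, 0.315 and 0.364). That of Sars gave 0.21 ± 0.14 (adjusted p = 0.543).

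The remaining 4 members are secreted factors, a receptor and a translation regulator, with a median change of 0.28, or 0.087 as deposited and 0.15 with a common median. In 3 of the 4 every knockout pool was above every control pool, beside 9.81% of all genes. Eif4ebp1 encodes a protein that holds back cap-dependent translation. It read 733.0, 737.6 and 1033.0 in the controls and 1336.7, 1202.9 and 1204.0 in the knockouts. No control reached a knockout, and the change was 0.59 ± 0.13 (SE, limma adjusted p = 0.122), or 0.77 ± 0.079 without litter C (adjusted p = 0.00388). Vldlr, a lipoprotein receptor, read 283.8, 239.1 and 296.3 in the controls and 335.0, 331.4 and 337.5 in the knockouts. Its knockouts were close together above the controls (0.28 ± 0.098, adjusted p = 0.264), and it did not pass without litter C (0.34, adjusted p = 0.108).

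Stc2, a secreted glycoprotein, was between 41.4 and 55.5 in the controls and between 60.5 and 66.0 in the knockouts (0.27 ± 0.14, limma adjusted p = 0.449). The hormone gene Fgf21 was near background at 18.7, 18.0 and 13.2 in the controls and 2.77, 7.43 and 16.2 in the knockouts. Of the probe sets of an array 45.4 to 50.1% are under 16 as deposited, so its change of -0.43 ± 0.22 (adjusted p = 0.434) is between background-level values. The measured members with an element in the promoter window thus had changes of 0.041 (Asns), -0.19 (Slc1a4), 0.28 (Vldlr), -0.55 (Nupr1), -0.43 (Fgf21) and 0.051 (Got1), and none of these passed with or without litter C.

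The members had 77 probe sets in all, 9 genes with 1 and 23 with several. Of the 45 that were not used for the counts, 41 had the sign of the one used and 4 the other sign, on Atf4, Slc7a1 and Cebpg (2 of them). In limma 0 of the 77 passed with 3 litters, and 27 passed without litter C, all higher. Of all 45037 probe sets, 71 were called higher and 118 lower with 3 litters. Without litter C, 1354 of them were called higher and 1419 lower. The 27 are not separate results, since some measure the same gene, as all 4 probe sets of Phgdh do. The median standard error of a member was 0.12 with 3 litters and 0.099 with 2.

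Other genes of the pathway were taken from named lists. Beside the counts of these lists, 8.66% of all genes were higher and 9.45% lower at an unadjusted p of 0.05. Without litter C 4.19% of all genes were called higher and 4.52% lower, and in 9.81% every knockout pool was above every control pool. Of 19 further ATF4 targets 0 passed in limma with 3 litters (10 higher and 1 lower at an unadjusted p of 0.05), with a median of 0.34, or 0.15 as deposited and 0.21 with a common median. The medians in litters A, B and C were 0.56, 0.43 and 0.092, and without litter C 8 passed, all higher. Mthfd1l, another mitochondrial folate enzyme, read 187.1, 192.6 and 246.4 in the controls and 396.1, 354.4 and 365.0 in the knockouts. Every knockout pool was above every control pool (0.80 ± 0.12, limma adjusted p = 0.061; 0.92 and 0.00422 without litter C). Ero1l, which oxidises cysteines in the endoplasmic reticulum, gave 0.74 ± 0.15 (adjusted p = 0.0989), and the tRNA exporter Xpot 0.56 ± 0.13 (adjusted p = 0.129); their groups did not overlap.

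Of 15 further cytosolic synthetases 0 passed in limma with 3 litters (6 higher and 0 lower at an unadjusted p of 0.05) and 5 rose without litter C, with a median of 0.22 (0.038 as deposited). Those with the smallest unadjusted p were Farsb (0.49 ± 0.11, adjusted p = 0.12), Cars (0.53 ± 0.12, 0.121) and Iars (0.45 ± 0.14, 0.215), for phenylalanine, cysteine and isoleucine. Of 16 mitochondrial synthetases 0 passed (3 higher and 0 lower at an unadjusted p of 0.05) and 1 rose without litter C, Yars2 (0.59 ± 0.15 with 3 litters, adjusted p = 0.163; 0.78 and 0.0183 without). Iars2 and Mars2 followed, with 0.38 ± 0.10 and 0.51 ± 0.16 (adjusted p = 0.176 and 0.222). The mitochondrial list's median was 0.16 (0.009 as deposited). Its control of litter C did not stand above the other controls, with a median difference of 0.0004 where the members had 0.34.

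The targets of XBP1 and ATF6, which act in the other arms of the unfolded protein response, had a smaller median of 0.079 over 16 genes, which was -0.12 as deposited and -0.059 with a common median. In limma 0 passed, and at an unadjusted p of 0.05 2 were higher and 0 lower, beside 8.66% and 9.45% of all genes. Without litter C 1 rose, Dnajb9, named here after its values were seen (0.59, limma adjusted p = 0.0428), beside 4.19% of all genes. The genes of the list with the smallest unadjusted p were Manf (0.27 ± 0.076, limma adjusted p = 0.184), Hspa5 (0.23 ± 0.088, 0.301) and Sel1l (-0.21 ± 0.094, 0.366). Hspa5, the chaperone BiP, read 2491.6, 2677.1 and 3102.7 in the controls and 3383.8, 2998.9 and 3328.0 in the knockouts, with overlapping groups. The medians of this list in litters A, B and C were 0.089, 0.061 and 0.19, so here litter C was the highest. The difference between this list and the members was not tested.

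Upstream of ATF4, 15 genes of eIF2 and its kinases, exchange factor and regulators had a median change of 0.09, which was -0.074 as deposited and -0.015 with a common median. Beside 0.401% of all genes called lower, a single gene passed in limma, Eif2s3y, the Y-linked copy of the eIF2 gamma subunit gene. It read 155.5, 178.4 and 185.3 in the controls and 3.18, 0.667 and 4.62 in the knockouts, and fell by 3.33 ± 0.15 on the log2 scale (SE, limma adjusted p = 0.00664). The X-linked copy Eif2s3x read 1042.9, 999.9 and 1139.4 in the controls and 1605.8, 1536.7 and 1587.1 in the knockouts. Every knockout pool was above every control pool, and the change of 0.57 ± 0.076 did not pass with 3 litters (limma adjusted p = 0.0503) but passed without litter C (0.61, 0.00609). Eif2ak4, the kinase GCN2 that senses uncharged tRNA, was singled out after its values were seen. It was lower in every litter, at 43.6, 62.8 and 68.9 in the controls and 25.1, 33.3 and 37.2 in the knockouts (-0.63 ± 0.14, adjusted p = 0.128; -0.61 and 0.106 without litter C).

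**Figure D5:**
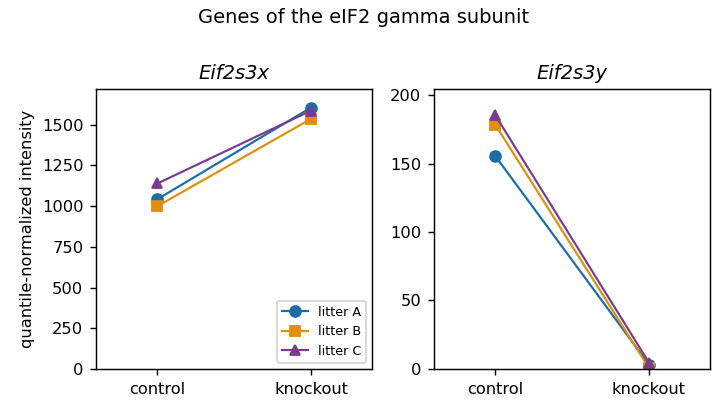
Quantile-normalized intensity (vertical axis, from 0) of the X-linked Eif2s3x and the Y-linked Eif2s3y in control and knockout pools, with a line for each litter. Eif2s3y is between 155.5 and 185.3 in the controls and under 5 in the knockouts, and Eif2s3x is higher in all 3 knockout pools.

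Other sex-linked genes also differed between the groups. The Y-linked Kdm5d and Uty had means of 56.0 ± 8.89 and 51.9 ± 10.1 (SD, n = 3) in the controls and 1.79 ± 1.42 and 1.54 ± 1.76 in the knockouts (limma adjusted p = 0.0199 and 0.0239). Xist, the RNA that silences an X chromosome, was at 475.8 ± 77.1 in the controls and 1234.3 ± 23.4 in the knockouts (1.36 ± 0.10, adjusted p = 0.0194). The labels do not give the pups' sex, and with these values the sex of the cells and the genotype cannot be told apart for any member.

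Over all arrays' probe sets, 71 of 45037 were called higher and 118 lower in limma, against 3 and 32 on the deposited scale, 1354 and 1419 without litter C, and 60 and 75 without the replicate block. Gpx4 itself had a mean of 527.8 ± 27.8 (SD, n = 3) in the controls and 229.3 ± 26.4 in the knockouts, a log2 change of -1.15 ± 0.091 (SE, adjusted p = 0.0206), with -1.40 ± 0.21 (adjusted p = 0.063) on a second probe set. The basal keratinocyte markers Krt5 and Krt14 were between 6278.1 and 7048.9 in all 6 pools. Of 10 keratinocyte markers 1 fell, Krt10 (-1.42 ± 0.084, limma adjusted p = 0.00922), beside 0.401% of all genes called lower. At an unadjusted p of 0.05 5 were lower and 1 higher, beside 9.45% and 8.66% of all genes. Trp63 was lower in every litter with no overlap (-0.43 ± 0.076, limma adjusted p = 0.0816), and Col17a1 gave -0.36 ± 0.11 (adjusted p = 0.213). Without litter C 5 markers fell and 1 rose, beside 4.52% and 4.19% of all genes. Krt15 read 267.5, 238.6 and 5.58 in the controls and 11.0, 1.83 and 2.2 in the knockouts, so in this gene too the litter C control was at the knockout level. This did not hold for all keratinocyte markers. On the log2 scale the litter C control minus the mean of the knockouts was 0.066 in Krt15, 0.14 in Krt1 and -0.019 in Col17a1. It was 0.27 in Trp63 and 1.55 in Krt10.

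Markers of other skin cells were measured as well. Of all genes 8.66% were higher at an unadjusted p of 0.05, and 4.19% were called higher without litter C. All 6 melanocyte markers were higher with no overlap, beside 9.81% of all genes. Past the threshold were 2 of them, Tyrp1 (0.69 ± 0.078, limma adjusted p = 0.038) and Mlana (1.11 ± 0.14, 0.0429), beside 0.214% of all genes called higher. The summed intensity of the 6 was 4216.4 to 4405.0 in the controls and 5975.6 to 6570.5 in the knockouts. The litter C control was not raised (median 0.079 above the other controls). Of 8 fibroblast markers 0 passed (3 higher and 0 lower at an unadjusted p of 0.05) and 3 rose without litter C, Col1a1 (1.39), Col1a2 (1.15) and Pdgfra (1.00). The rest did not pass without litter C: Pdgfrb (0.72), Col3a1 (0.67), Thy1 (0.64) and the dim Dcn (0.021) and Lum (-0.018). The sum of the 8 fibroblast markers was 216.4 to 612.8 in the controls, with the highest in litter C, and 444.1 to 651.6 in the knockouts. The median fibroblast marker was 1.04 higher in the litter C control than in the other controls, in the same array as the raised members. Dcn and Lum were only 0.12 and 0.27 higher there. Leukocyte markers summed to 62.7 to 87.0 and 75.1 to 127.4, and endothelial markers to 23.1 to 34.8 and 24.4 to 37.3. Among the dim leukocyte markers Cd3e was under 10 in every pool, and Cd74 read 13.4, 7.38 and 19.9 in the controls and 24.1, 25.8 and 33.5 in the knockouts (0.58 ± 0.17, limma adjusted p = 0.20). The levels of Ptprc were 2.32 to 9.02 in the controls and 5.65 to 15.7 in the knockouts. The other leukocyte markers were nearly level: Lyz2 had means of 33.5 and 35.0 (0.036 ± 0.17). Cd52 gave 0.085 ± 0.24 and Tyrobp -0.057 ± 0.27. Of the 6 leukocyte markers 0 passed in limma. The part of fibroblasts or melanocytes in the members' levels was not tested.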

How the data were processed

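Total RNA of 6 keratinocyte pools was labelled with biotin by in vitro transcription, per the labels' protocols, and hybridised to 1-colour arrays. The authors deposited 1 linear intensity per probe set and array. Background correction, probe summary and scaling are not given in the sources used here, and the trimmed means (2% at each end) of the deposited intensities were 72.8 to 114. After 64 control probe sets were left out, 45037 were quantile-normalized and tested as log2(intensity + 16) with limma 3.58.1 (R 4.3.3; lmFit, eBayes with a trend), litter as a block, two-sided, with Benjamini-Hochberg adjustment over all probe sets and a threshold of 0.05. The labels name each array's litter, which gives the pairing; residuals of same-litter arrays correlated at 0.175 (A), 0.0474 (B) and 0.207 (C). The number of arrays, 3 a group, limits the precision.

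Symbols came from the platform annotation of GEO: 34945 probe sets had 1 gene, 932 several and 9160 none listed. A gene's probe set was that with the highest mean over 6 arrays. The genes named are all members, and of each other pathway list those past the threshold or otherwise the 3 with the smallest unadjusted p, plus Gpx4, Eif2s3x and Eif2s3y. Eif2ak4, Dnajb9 and the cell type and sex-linked markers named were picked after their values were seen. The genes Pycr1, Eif2s1, Gdf15, Dars and Ddx3y had no matched probe set and were not analysed here. Members, lists and settings were chosen with earlier results of these data known. Steps were tested on simulated data. Promoters and their coordinates came from RefSeq tables of GRCm38.p6. Alternatives were the deposited scale, a common median, pseudocounts of 1 and 64, no dim probe sets, no block, no trend, the mean of a gene's probe sets, and each litter left out. The fits without 1 array of litter C were chosen after seeing the data.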

Additional observations from a re-analysis of the deposited data

How the results depend on the processing

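No member passed as higher on the deposited scale, with arrays at a common median, with a pseudocount of 64, without the replicate block, with the mean of a gene's probe sets or without an intensity trend. With a pseudocount of 1 the count was 1 (Slc6a9), and without the 40% dimmest probe sets it was 3 (Phgdh, Slc6a9 and Eif4ebp1). It ran from 0 to 14 with a litter left out, and without the block it was 13 without the control array of litter C and 0 without its knockout array. No member was called lower in any of these settings (limma; 0 at an unadjusted p of 0.05 with 3 litters). The median change of the members stayed between 0.087 and 0.36, within 1 SD (0.22) of its 3 litter values. Probe sets called higher over the whole table numbered 3 as deposited, 198 with a common median, 271 and 27 with pseudocounts of 1 and 64, 521 without the dimmest and 0 without a trend, 0 to 1354 with a litter left out, and, with no block, 1136 without the control array of litter C and 8 without its knockout array. Those called lower numbered 32, 512, 330, 32, 609 and 6 in the same order, 75 without the replicate block, 0 to 1419 with a litter left out, and 1294 and 7 without those arrays.

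Signs turned in 10 members under at least 1 setting. On the deposited scale they were Atf4 (-0.0073), Ddit3 (-0.18), Asns (-0.12), Shmt2 (-0.03), Atf5 (-0.061), Gpt2 (-0.038), Got1 (-0.15) and Wars (-0.027). With a common median they were Ddit3 (-0.12), Asns (-0.059), Atf5 (-0.0016) and Got1 (-0.092), and with the mean of probe sets Cebpg (0.11). With a litter or an array of litter C left out the values ran from -0.13 to 0.21 for Ddit3, -0.029 to 0.13 for Asns, -0.13 to 0.1 for Cebpg, -0.098 to 0.32 for Atf5, -0.86 to 0.0047 for Nupr1 and -0.026 to 0.12 for Got1; Cebpg was at 0.047 and 0.042 without the control and the knockout array of litter C. The cause was not tested. A bright array as deposited and 3 arrays a group limit these changes, and dim genes such as Fgf21 have little signal over background.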
